A study of Mus musculus with 2 samples.

Results

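Dividing neutrophil precursors were described in the library labelled P180, 1 of 2 droplet-based single-cell libraries of mouse liver. A barcode belonged to them if Camp and Ngp together made up at least 1% of its UMIs (unique molecular identifiers, each counting 1 captured transcript), if it held at least 1 UMI of Mki67 or Top2a, and if 4 adult haemoglobin genes stayed under 10% of its UMIs. Chosen by these measured values, the members were 587 cells among 9582 barcodes kept in that library, which is 6.13% (exact binomial 95% interval, 5.65 to 6.62%), and among 14303 kept in both. All intervals given here cover counting error within a library and say nothing of the spread between animals.

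Both livers were labelled tetraploid (4N), and per the labels' protocols both came from Hhex knockout animals into which 4N embryonic stem cells positive for tdTomato had been injected at the blastocyst stage. The cells described came from the 1 library labelled as postnatal day 180 (P180), and the cells set beside them partly from the 1 library labelled E18.5, an embryonic stage. With 1 library per stage no difference between stages could be tested, and stage, animal and library preparation cannot be told apart. A host with this knockout may keep cells of its own, and the deposited feature list held 0 features named tdTomato, so host cells and injected cells were not told apart here. Hhex itself was at 104 CPM (a gene's UMIs as a share of the group's summed UMIs, in UMIs per 1e6) in the dividing precursors and was found in 85.3% of them. The sources used here do not give the deleted stretch of the gene, so its level here is no check of the genotype.

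The makeup of the libraries went against their stage labels. Haemoglobin made up 10% or more of the UMIs in 78.4% of the barcodes of the library labelled P180 and in 2.84% of those of the library labelled E18.5, whereas blood formation belongs, as textbook background, to the fetal liver. The libraries also differed in their sex-linked transcripts: Xist had 8 UMIs in the library labelled P180 and 39773 in that labelled E18.5, and the Y-linked Ddx3y had 3601 and 34 UMIs in the same order. The median mitochondrial share of UMIs was 0.655% in the library labelled P180 and 16.7% in that labelled E18.5. The libraries shared 28 barcode sequences, of which 2 belonged to members, and 0 of those were kept in the other library. Both labels are used below as deposited.

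Neutrophils pass through a dividing phase before they stop cycling and leave for the blood. The primary (azurophil) granule proteins, such as myeloperoxidase and the serine proteases elastase, proteinase 3 and cathepsin G, are made first, at the promyelocyte stage. The secondary (specific) granule proteins, such as lactoferrin, lipocalin 2 and the cathelicidin encoded by Camp, follow at the myelocyte and metamyelocyte stages, and gelatinase granules and surface receptors come last. Camp and Ngp encode an antimicrobial peptide precursor and a neutrophil granule protein, Mki67 and Top2a encode a chromosome coat protein and a DNA topoisomerase of cycling cells, and C/EBP factors drive the switch between the granule classes.

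Promoter sequences of genes the results turn on are shown first, as the 250 bases before the start of each RefSeq transcript on build GRCm38.p6, each written 5′ to 3′ on the strand of its gene. For the granule genes Ngp and Ltf the capitals mark matches to TTNNGCAA, the core that C/EBP factors bind. For the mitotic genes Ube2c and Mki67 they mark matches to TTTGAA, the cell cycle homology region (CHR), or to CCAAT, the NF-Y box. Matches were taken on both strands, and overlapping matches run together.
Ngp, chr9:110419558-110419807, plus strand: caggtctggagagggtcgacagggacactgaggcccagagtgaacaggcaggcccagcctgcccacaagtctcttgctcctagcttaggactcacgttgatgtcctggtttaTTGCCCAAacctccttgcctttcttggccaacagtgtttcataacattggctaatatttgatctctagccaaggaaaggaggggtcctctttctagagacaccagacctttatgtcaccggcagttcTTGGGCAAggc
Ltf, chr9:111019042-111019291, plus strand: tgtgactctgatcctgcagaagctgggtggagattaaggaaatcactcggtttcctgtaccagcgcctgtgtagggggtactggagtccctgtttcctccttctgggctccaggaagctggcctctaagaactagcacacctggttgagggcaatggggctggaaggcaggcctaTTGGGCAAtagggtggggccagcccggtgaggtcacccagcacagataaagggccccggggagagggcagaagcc
Ube2c, chr2:164769679-164769928, plus strand: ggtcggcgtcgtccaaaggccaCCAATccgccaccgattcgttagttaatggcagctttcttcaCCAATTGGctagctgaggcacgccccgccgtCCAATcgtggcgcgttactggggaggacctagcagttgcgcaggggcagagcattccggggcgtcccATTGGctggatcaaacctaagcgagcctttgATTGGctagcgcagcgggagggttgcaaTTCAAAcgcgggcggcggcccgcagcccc
Mki67, chr7:135716380-135716629, minus strand: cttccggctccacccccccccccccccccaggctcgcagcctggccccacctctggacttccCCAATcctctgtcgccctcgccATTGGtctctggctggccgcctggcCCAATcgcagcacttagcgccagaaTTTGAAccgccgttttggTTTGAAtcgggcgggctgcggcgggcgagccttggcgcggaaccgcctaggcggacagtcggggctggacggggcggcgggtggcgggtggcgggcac
Ngp held its 2 matches to TTNNGCAA at bases -138 and -11, counted back from the start, and Ltf held 1 at base -75, which overlapped a CCAAT match on the other strand at base -76. Camp, whose promoter lies on the same chromosome, had no match to TTNNGCAA in this window. For the promoter counts alone, the rule genes Camp and Ngp were added to the secondary granule list, and Mki67 and Top2a to the mitosis list. The pattern TTNNGCAA stood in 5 of 21 promoters of the secondary granule list (23.8%), in 3 of 9 of the stefin A list (33.3%), in 0 of 44 of the mitosis list, in 3 of 36 of the DNA replication list (8.33%) and in 9.56% of all 32851 promoters. TTTGAA stood in 16 of 44 promoters of the mitosis list (36.4%), in 5 of 21 of the secondary granule list (23.8%), in 3 of 36 of the DNA replication list (8.33%), in 1 of 9 of the stefin A list (11.1%) and in 16.0% of all. CCAAT stood in 34 of 44 promoters of the mitosis list (77.3%), in 21 of 36 of the DNA replication list (58.3%), in 6 of 9 of the stefin A list (66.7%), in 7 of 21 of the secondary granule list (33.3%) and in 33.8% of all. Among the genes ranked by their ratio over non-dividing cells, CCAAT stood in 6 of 10 matched promoters of those higher and in 6 of 10 of those lower. The E2F pattern TTTGGCGC stood in 3 of 36 promoters of the DNA replication list (8.33%), in 1 of 44 of the mitosis list (2.27%) and in 0.417% of all. In the 12 promoters of the primary granule list TTNNGCAA stood in 2 (16.7%), TTTGAA in 1 (8.33%) and CCAAT in 4 (33.3%). These matches are descriptions of letters in a window and not of bound sites.

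The label was set beside the 5 marker genes given for these cells. Camp (ENSMUSG00000038357) averaged 37650 CPM over the summed UMIs, and its level per cell had a lowest value of 1569, a median of 40257 and a highest of 76734 CPM. Ngp (ENSMUSG00000032484) was at 27168 CPM, with 97.4, 32444 and 60104 CPM as the lowest, median and highest cell. Both chose the cells, so these levels describe the rule. Ltf (ENSMUSG00000032496), the iron-binding lactoferrin that the rule did not use, was found in 576 of 587 cells (98.1%) at 5334 CPM, and the lowest cell was at 0, the median cell at 6748 and the highest at 40069 CPM. Stfa1 (ENSMUSG00000071562), a cysteine protease inhibitor of the stefin A family, was found in every one of the 587 cells, at 41280 CPM. Mki67 (ENSMUSG00000031004) was found in 558 cells at 276 CPM, and Top2a (ENSMUSG00000020914), the other gene of the rule, in 476 cells at 311 CPM. Camp, Ngp and Mki67 were present by the choice of the cells, while Ltf and Stfa1 were outside the rule and both were found. Genes that go with Camp and Ngp share in that choice, so finding these 2 does not test the name. Stfa1 was also at 39827 CPM in the non-dividing Camp and Ngp cells, so it does not set the dividing cells apart.

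The precursors were deeply sampled and their depth differed from that of the cells set beside them. Their median was 22583 UMIs and 3708 genes per cell, and their UMIs summed to 14359458. The 334 non-dividing Camp and Ngp cells of the same library, which met the same limits with 0 UMIs of Mki67 and Top2a, had a median of 10898 UMIs and summed to 3757181. The 86 early granule cells of that library, with at least 1% of UMIs in Mpo, Elane, Prtn3 and Ctsg and under 1% in Camp and Ngp, had 38477 and summed to 3301025. The 281 mature neutrophils of the library labelled E18.5, with at least 5% of UMIs in S100a8 and S100a9 and under 1% in Camp and Ngp, had 2941 and summed to 892707. The median mitochondrial share was 0.908% in the dividing precursors, 0.515% in the non-dividing cells, 1.53% in the early granule cells and 11.5% in the mature neutrophils. Values for cells thinned to equal depth are given where they moved a result.

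At the limits of the rule, 68 members held exactly 1 UMI of Mki67 and Top2a, next to the 334 cells at 0. The members at 1 UMI had a median of 12705 UMIs, 209 CPM of the DNA replication list and 548 CPM of the mitosis list per cell, against 23886 UMIs, 2395 CPM and 6130 CPM in the 519 members with 2 or more. Camp and Ngp stood at 1 to 2% in 27 members, and 13 cells just outside held 0.5 to 1%. Haemoglobin stood at 5 to 10% in 14 members, and 20 cells just outside held 10 to 15%. Of the 14 members, 9 (64.3%) were among the barcodes with the highest Scrublet doublet scores, against 37 of all 587 (6.30%) and 735 of 9582 in the library (7.67%).

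Free transcripts limit what 1 UMI can say. A Camp or Ngp UMI was found in 73.4% of the haemoglobin-rich barcodes, but at a median of 0.0196% of UMIs, far under the 1% limit. With every cell thinned to 2000 UMIs, Mki67 or Top2a was found in 341 of 578 dividing precursors (59.0%, 54.9 to 63.0%), a share set by the rule, which required such a UMI before thinning. Without that requirement it was found in 341 of 900 Camp and Ngp cells (37.9%, 34.7 to 41.1%). It was found in 29 of 79 early granule cells (36.7%), in 2825 of 6586 haemoglobin-rich barcodes (42.9%) and in 16 of 94 endothelial barcodes (17.0%, 10.1 to 26.2%). The thinning left out 9 dividing precursors, 7 early granule cells, 927 haemoglobin-rich barcodes and 25 endothelial barcodes. In this library 90 cells met the limits set for the mature neutrophils, and 23 of them were also early granule cells. Mki67 or Top2a was found in 19 of the 89 that could be thinned (21.3%, 13.4 to 31.3%). The endothelial share was set beside the others as a background, although some of those cells may cycle.

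Cell cycle genes come first because the rule chose on them, and their difference from the non-dividing cells is a description of that choice. Over 8687 genes that reached 50 UMIs in either group and that the rule did not use, 2579 (29.7%) exceeded a 2-fold difference upwards and 366 (4.21%) downwards in dividing relative to non-dividing cells, and the median log2 ratio over all of them was 0.42. In this and the later comparisons, a gene that reached 50 UMIs only in the group with fewer UMIs had to be lower in the dividing cells. The split depended on the scaling: of the genes past 2-fold, 87.6% were higher with CPM, 66.5% with median-of-ratios scaling, 82.8% with a total free of granule, S100 and rule genes, and 71.4% with every cell thinned to 3000 UMIs. In the gene comparisons thinned to 3000 UMIs, the limits of all groups were applied again to the thinned counts, which left 404 members. Cells that lost their Mki67 and Top2a UMIs by thinning then counted as non-dividing, so these values are not of depth alone. Medians of lists set a gene at 0 UMIs in 1 group at its bound. All 46 measured genes of the mitosis list were at least 2-fold higher in the dividing cells, with a median log2 ratio of 4.66, and so were all 37 of the DNA replication list, with a median of 3.38. A further 21 of 21 tested genes of the nucleosome list were higher, with a median of 3.16. That list also holds tubulin genes, Stmn1, Ran and Ptma.

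**Figure D1:**
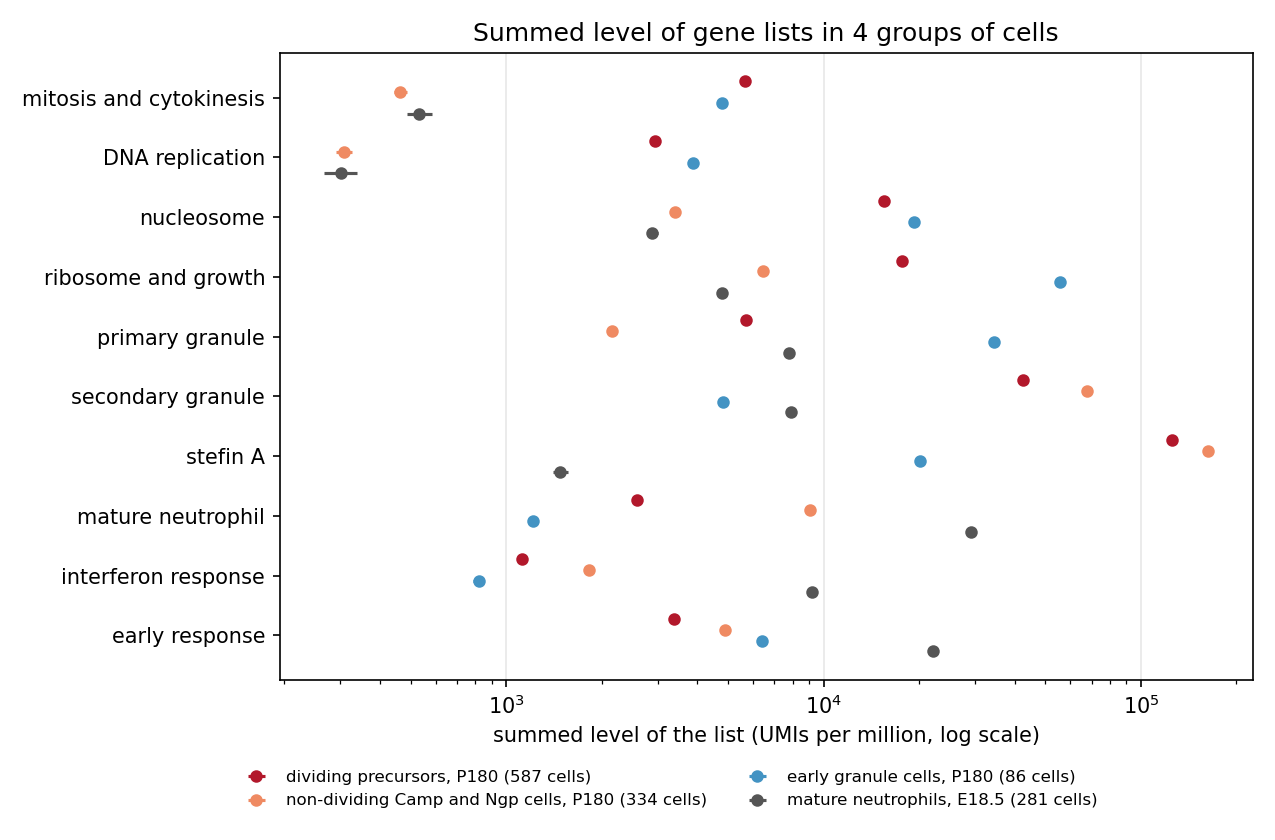
Summed level of 10 gene lists (CPM, log axis) in the dividing precursors, the non-dividing Camp and Ngp cells and the early granule cells of the library labelled P180 and in the mature neutrophils of that labelled E18.5; bars are exact Poisson 95% intervals. The mitosis list stood at 5656 CPM in the dividing precursors and at 464 CPM in the non-dividing cells, and the stefin A list at 125505 CPM in the dividing precursors and 1479.8 CPM in the mature neutrophils.

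Among the genes ranked highest by the nearer bound of the ratio's exact interval were the spindle motor Kif11, the spindle protein Nusap1, the chromosomal passenger kinase Aurkb, the cohesion factor Esco2, the kinetochore scaffold Knl1 and the cyclin-dependent kinase Cdk1. Kif11 had 1282 UMIs in dividing and 1 UMI in non-dividing cells, a log2 ratio of 8.39 (5.91 to 13.69). Esco2 had 701 UMIs in dividing cells and 0 in non-dividing cells, 61.1-fold higher when the 0 is set at 3 UMIs for the group. The lower limit of the exact interval of its log2 ratio was 5.63. Rrm2, the small subunit of ribonucleotide reductase, was at 357 CPM in dividing and 7.19 CPM in non-dividing cells (log2 ratio 5.63). Cdk1 was at 231 CPM in dividing and 4.52 CPM in non-dividing cells (log2 ratio 5.67). These genes were at few or no UMIs in the non-dividing cells, whose median cell held 256 CPM of the mitosis list, against 5555 CPM in the median dividing cell. A few non-dividing cells reached higher: the highest held 12300 CPM of the mitosis list and another 7046 CPM of the DNA replication list, without a UMI of Mki67 or Top2a. These cells held 813 and 1845 UMIs in that order, against a median of 10898 in their group, so the missing UMI says little.

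**Figure D2:**
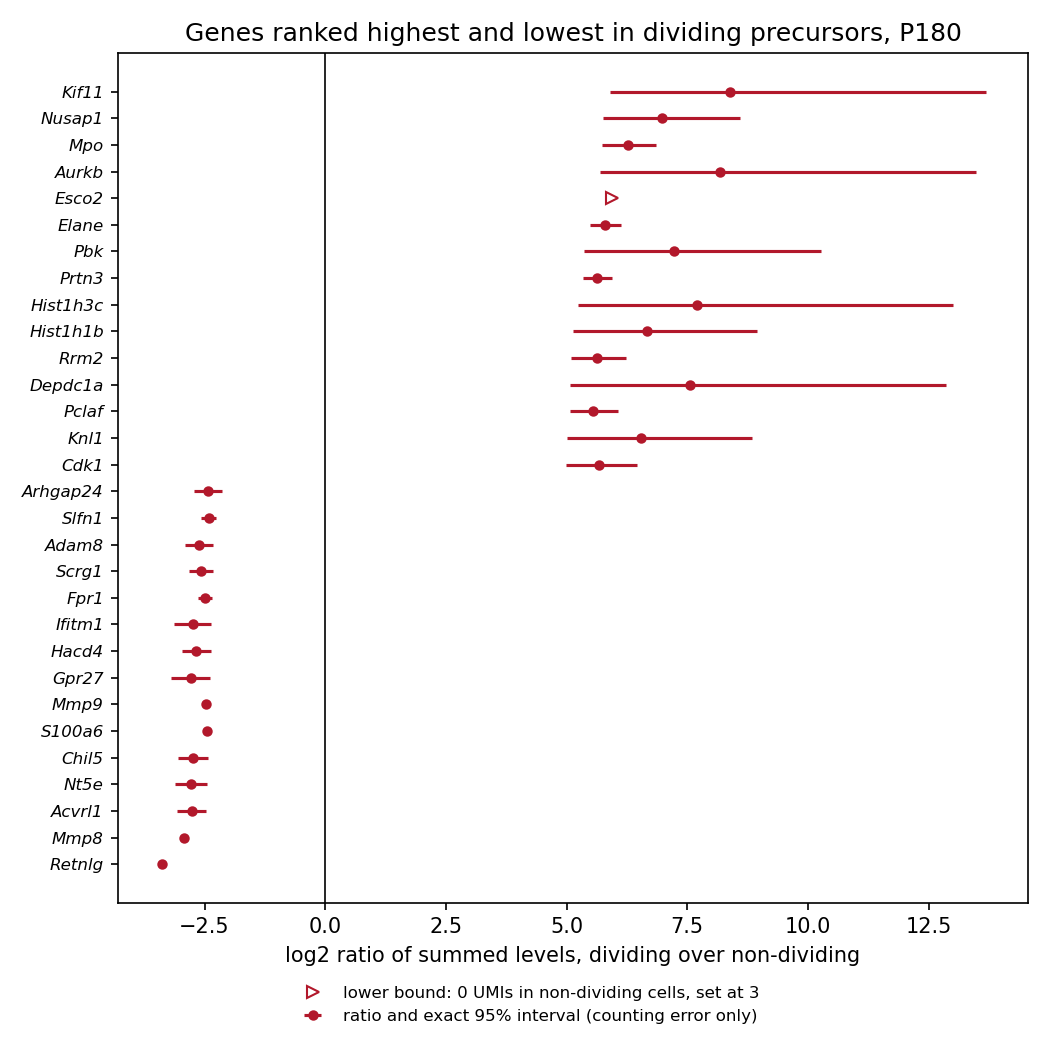
Log2 ratio of summed levels, dividing over non-dividing cells of the library labelled P180, for the 15 genes ranked highest and the 15 ranked lowest, with exact 95% intervals for counting error. Kif11, Mpo and Elane stand on the right among the genes higher in dividing cells, and Retnlg and Mmp8 on the left among those lower in dividing cells; Esco2 is drawn as a lower bound.

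The dividing precursors were ranked by the mitosis list in 4 equal ranges, which hold 147, 147, 147 and 146 cells and are ranges, not stages. The DNA replication list stood, in that order, at 3622, 3861, 2752 and 1735 CPM. Across the 587 cells, which share a library, the relation of both lists was weak (Pearson r = -0.22, Spearman rho = -0.13). Ccne2, the cyclin E that opens S phase, stood at 57.4, 46.8, 19.1 and 5.18 CPM, and the replicative helicase subunit Mcm5 at 140, 148, 85.0 and 54.5 CPM. Ccnb1, the mitotic cyclin, stood at 8.75, 44.7, 115 and 221 CPM, but it is part of the list that ranked the cells, as are Ube2c and Cdc20. Cdkn2d, an inhibitor of the cyclin D kinases that is not on the list, stood at 100, 145, 246 and 327 CPM. Hmgb2, a chromatin protein also outside the list, stood at 2077, 2928, 3820 and 4191 CPM. Median depth was 17632, 23921, 25122 and 22731 UMIs in these ranges.

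**Figure D3:**
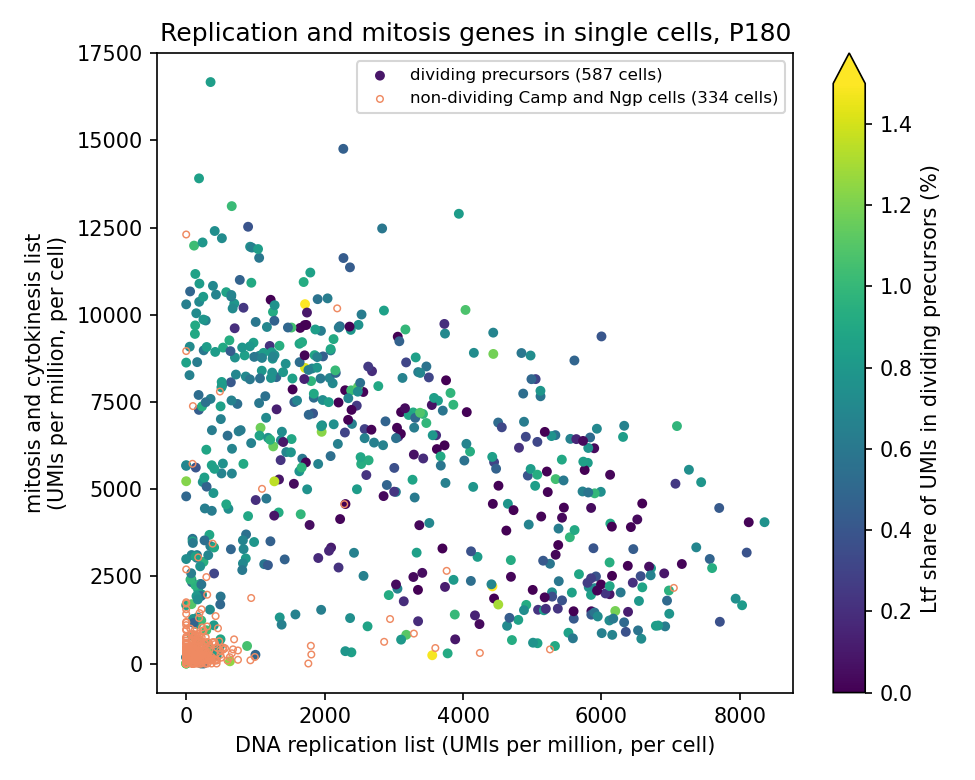
Each point is 1 cell of the library labelled P180, placed by its DNA replication list (x axis, CPM) and its mitosis and cytokinesis list (y axis, CPM); filled points are the 587 dividing precursors, coloured by the Ltf share of UMIs, and open points the 334 non-dividing Camp and Ngp cells. The dividing cells spread from high replication to high mitosis levels, while the median non-dividing cell lies at 133 and 256 CPM near the origin.

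Of 21 tested cyclins, kinases, E2F factors and brakes, 12 were at least 2-fold higher and 1 lower in dividing than in non-dividing cells (median log2 ratio 1.81), beside 29.7% and 4.21% of all genes. The cyclin E genes Ccne1 and Ccne2 were at 31.2 and 30.3 CPM in dividing cells and at 1.60 and 1.33 CPM in non-dividing cells. The cyclin D gene Ccnd3 was at 268 CPM in dividing and 271 CPM in non-dividing cells, almost the same level in both, while Ccnd1 and Ccnd2 were at 1.95 and 6.89 CPM in dividing cells. Among the INK4 inhibitors, Cdkn2c was at 36.4 CPM in dividing and 2.13 CPM in non-dividing cells, and Cdkn2d at 212 CPM in dividing and 158 CPM in non-dividing cells. The antiproliferative Btg2 was the 1 gene at least 2-fold lower, at 212 CPM in dividing and 603 CPM in non-dividing cells (log2 ratio -1.51).

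The liver is labelled tetraploid, so p53 targets were looked at as a list, although host and injected cells were not told apart. Of 9 tested, 5 were at least 2-fold higher and 1 lower in dividing than in non-dividing cells, with a median log2 ratio of 1.11. Over all genes 29.7% were higher and 4.21% lower, with a median of 0.42. Cdkn1a, the p21 inhibitor, was at 33.2 CPM in dividing, 5.06 CPM in non-dividing and 32.4 CPM in early granule cells. Bax, a promoter of cell death, was at 34.3 CPM in dividing and 15.2 CPM in non-dividing cells. Mdm2, the ubiquitin ligase that p53 induces, was at 80.1 CPM in dividing and 114 CPM in non-dividing cells, and Trp53inp1 at 9.40 CPM in dividing and 35.4 CPM in non-dividing cells. The list held members on both sides, and diploid livers were not analysed here.

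Primary granule genes stood higher in dividing than in non-dividing cells. Of 11 tested, 8 were at least 2-fold higher and 0 lower, with a median log2 ratio of 4.04, beside the 29.7% higher over all genes. Elane, neutrophil elastase, was at 1247 CPM (17908 UMIs) in dividing and 22.4 CPM (84 UMIs) in non-dividing cells, a log2 ratio of 5.80 (5.49 to 6.13). Mpo, myeloperoxidase, was at 594 CPM in dividing and 7.72 CPM in non-dividing cells, and Prtn3, proteinase 3, had 17782 UMIs in dividing and 94 UMIs in non-dividing cells. Taken gene by gene, Elane was found in 213 of 587 dividing cells (36.3%), Mpo in 161 (27.4%) and Prtn3 in 293 (49.9%), and Mpo, Elane, Prtn3 and Ctsg together made up 0.00517% of the UMIs of the median dividing cell.

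The 109 dividing cells with at least 0.1% of UMIs in Mpo, Elane, Prtn3 and Ctsg carried most of that signal. Without them the list's median log2 ratio over non-dividing cells was 0.48, against 0.27 over all genes. Among cells of 10000 to 20000 UMIs in both groups it was 0.82, against 0.16 over all genes. Both settings were chosen after the data were seen. With every cell thinned to 3000 UMIs the list's median was 0.51 over the genes still testable, against 0.087 over all genes. There the rule was applied again after thinning, so members that lost their Mki67 and Top2a UMIs stood among the non-dividing cells. The 3 ranges of that share among the dividing cells, also set after the data were seen, held 48 cells at 1% and over, 61 at 0.1 to 1% and 478 under 0.1%. Against the early granule cells the members stood lower in 9 of the 11 genes and higher in 1, with a median log2 ratio of -2.52, but Mpo, Elane, Prtn3 and Ctsg chose those cells. Of the list's genes outside that choice, Ms4a3, a membrane protein of granulocyte progenitors, was at 349 CPM in dividing and 1529.5 CPM in early granule cells, and the serine protease gene Prss57 at 78.5 CPM in dividing and 333 CPM in early granule cells.

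Along these 3 ranges, from the most primary granule transcript to the least, the dividing cells differed in genes that did not define the ranges. Ltf stood at 113, 1386 and 7113 CPM, and Lcn2, the siderophore-binding lipocalin 2, at 1372, 6093 and 13531 CPM. Retnlg, a resistin-like gene of late neutrophils, stood at 5.19, 72.7 and 554 CPM. Gfi1, a repressor needed for neutrophil production, stood at 85.1, 22.3 and 8.23 CPM, and Cebpa, which acts early in the lineage, at 20.2, 5.23 and 2.42 CPM. Cebpe, the factor of the secondary granule stage, differed less, with 578, 645 and 707 CPM.

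The ribosome and growth list followed the primary granule side, with 39639, 28446 and 11374 CPM over the same ranges, and Cdk6, a kinase partner of D cyclins, with 178, 59.9 and 27.3 CPM. The cycle lists differed less: the mitosis list stood at 5375, 5190.4 and 5803 CPM and the DNA replication list at 4276, 3785 and 2533 CPM. The rule required a division marker of every cell in all 3 ranges. Median depth went down along the ranges, with 40244, 32056 and 20741 UMIs per cell. Across the 587 cells the primary granule list had Pearson r = 0.82 and Spearman rho = 0.66 with the ribosome and growth list, and r = -0.71 and rho = -0.51 with the secondary granule list. The cells share a library, and lists given as shares of UMIs depend on each other, so these are descriptions.

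**Figure D4:**
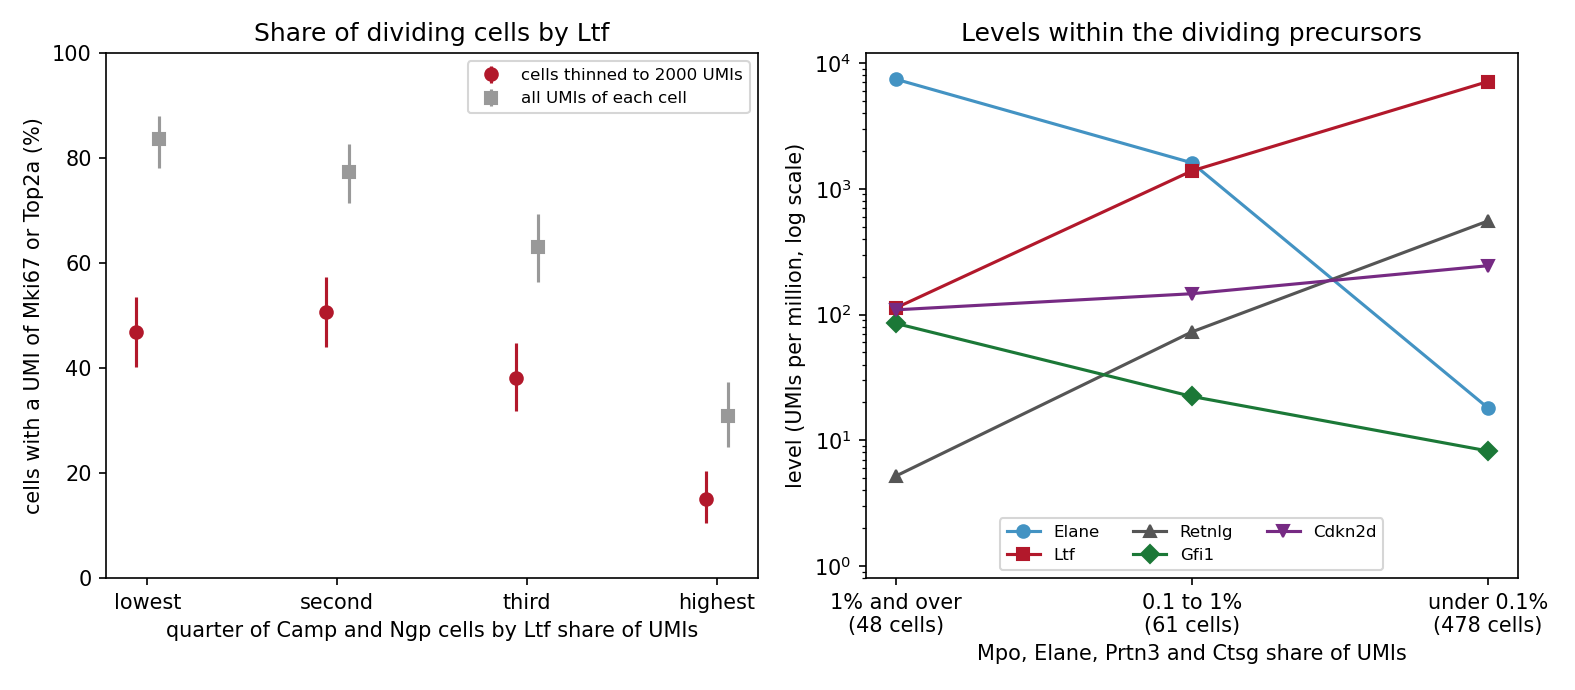
Left, share of Camp and Ngp cells of the library labelled P180 with a UMI of Mki67 or Top2a in 4 equal ranges of the Ltf share of UMIs, for cells thinned to 2000 UMIs and for all UMIs, with exact binomial 95% intervals; right, levels of 5 genes (CPM, log axis) in the dividing precursors along 3 ranges of the primary granule share. The thinned share was 46.9% in the range lowest in Ltf and 15.1% in the highest. Elane falls along the ranges on the right, which it helps to define, while Ltf rises.

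How many of the Camp and Ngp cells carried a division marker differed along Ltf. The 921 cells were split into 4 equal ranges by their Ltf share of UMIs, with every cell thinned to 2000 UMIs. Mki67 or Top2a was then found in 46.9% (106 of 226; 40.3 to 53.6%), 50.7% (115 of 227), 38.2% (87 of 228) and 15.1% (33 of 219; 10.6 to 20.5%), from the lowest to the highest Ltf. Without thinning the shares were 83.5, 77.4, 63.0 and 30.9%, with median depths of 29147, 19413, 16861 and 12686 UMIs. The interval of the range highest in Ltf lay under those of the other 3, which overlapped their neighbours. That interval also overlapped the 10.1 to 26.2% of the endothelial barcodes. Without thinning the endothelial share was 26.9%, at a median depth of 3707 UMIs. Whether free transcripts gave the share in the range highest in Ltf was not tested.

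Secondary granule genes were high in both classes and somewhat lower in the dividing cells. Of 18 tested, 0 were at least 2-fold higher and 3 at least 2-fold lower than in non-dividing cells, with a median log2 ratio of -0.57 against 0.42 over all genes. Ltf was at 5334 CPM in dividing and 9215 CPM in non-dividing cells (log2 ratio -0.79), and Lcn2 at 10809 CPM in dividing and 15501 CPM in non-dividing cells. Lyz2, lysozyme, was at 8903 CPM in dividing and 15741 CPM in non-dividing cells. The 3 genes at least 2-fold lower were the collagenase gene Mmp8, at 160 CPM in dividing and 1217 CPM in non-dividing cells, the membrane gene Ifitm6, at 1277 and 3320.3 CPM in the same order, and the adhesion gene Ceacam10, at 144 and 409 CPM in that order. The chitinase-like gene Chil3 went the other way in sign, with 1921 CPM in dividing and 1558 CPM in non-dividing cells, under 2-fold.

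Set beside the early granule cells, the same list separated the classes widely. Over 8850 genes that reached 50 UMIs in either group, 779 (8.8%) passed 2-fold upwards and 2653 (30%) downwards in the dividing precursors, with a median log2 ratio of -0.50. Of those past 2-fold, 22.7% were higher with CPM, 50.8% with median-of-ratios scaling, 42.9% with the total free of granule, S100 and rule genes and 42.8% thinned to 3000 UMIs. Of the 18 secondary granule genes 16 passed 2-fold upwards and 0 downwards, with a median of 3.91. Ltf was at 5334 CPM (76594 UMIs) in dividing and 17.0 CPM (56 UMIs) in early granule cells, a log2 ratio of 8.30 (7.92 to 8.70). Cd177, a neutrophil surface protein, was at 493 CPM in dividing and 2.42 CPM in early granule cells. Camp and Ngp chose the cells on both sides, so genes that go with them share in that choice.

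The genes ranked lowest against the early granule cells were of other lineages as well as of an earlier stage. Prss34, Cpa3 and Mcpt8, mast cell and basophil proteases, had 8, 2 and 15 UMIs in the dividing precursors and 1045, 296 and 414 UMIs in the early granule cells. Of the 86 early granule cells, 18 (20.9%) held a UMI of these 3 genes and 3 held 10 or more. Irf8, a factor of the monocyte branch, was at 4.18 CPM in dividing and 148 CPM in early granule cells, and Ctsg, cathepsin G, at 135 and 3777 CPM in that order. Without those 18 cells, a setting chosen after the data were seen, 794 genes were higher and 2517 lower.

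Growth genes placed the dividing precursors between the other classes of the library. Of 24 ribosomal protein, nucleolar and growth genes, 20 passed 2-fold upwards and 0 downwards relative to non-dividing cells (median log2 ratio 1.57, beside 29.7% and 4.21% of all genes), and 0 were higher and 24 lower than in early granule cells (median -1.69, against -0.50 over all genes). The list's sum was 17671 CPM in dividing, 6457 CPM in non-dividing and 55623 CPM in early granule cells. Npm1, nucleophosmin, was at 228 CPM in dividing, 62.3 CPM in non-dividing and 1646 CPM in early granule cells. Rps18, a protein of the small ribosomal subunit, was at 1116 CPM in dividing, 294 CPM in non-dividing and 3128 CPM in early granule cells. With cells thinned to 3000 UMIs and sorted again by the rule, the list's median over non-dividing cells was 0.56, against 0.087 over all genes. Among cells of 10000 to 20000 UMIs it was 0.39, against 0.16 over all genes.

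The cell cycle lists differed less between the dividing precursors and the early granule cells than the growth list did. Of 37 DNA replication genes 0 passed 2-fold upwards and 7 downwards, with a median log2 ratio of -0.56, close to the -0.50 over all genes. Of 46 mitosis genes 8 were higher and 0 lower, with a median of 0.45, above that over all genes. Over all genes these shares were 8.8% higher and 30% lower. The rule required Mki67 or Top2a of the dividing precursors alone, so genes that go with them share in that choice. Of the 86 early granule cells 76 held a UMI of either. Mki67 was at 276 CPM in dividing and 101 CPM in early granule cells. Cdkn2c was at 36.4 CPM in dividing and 4.54 CPM in early granule cells, and Cdk6 at 52.4 CPM in dividing and 320 CPM in early granule cells. Myc was at 3.76 CPM in dividing and 28.8 CPM in early granule cells.

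Genes of mature neutrophils stood lower in dividing than in non-dividing cells. Of 22 tested, 14 were at least 2-fold lower and 1 higher, with a median log2 ratio of -1.23, beside the 4.21% lower over all genes. Retnlg was at 410 CPM in dividing and 4284 CPM in non-dividing cells, a log2 ratio of -3.39 (-3.43 to -3.34), and Mmp9, the gelatinase B of the last granule class, at 132 CPM in dividing and 731 CPM in non-dividing cells. The formyl peptide receptor gene Fpr1 was at 42.6 CPM in dividing and 240 CPM in non-dividing cells. S100a6, a calcium-binding protein, was at 418 CPM in dividing and 2298 CPM in non-dividing cells. The chemokine receptor Cxcr2, which guides neutrophils out of the marrow, was at 81.8 CPM in dividing and 140 CPM in non-dividing cells, less than 2-fold apart. Ccrl2, an atypical chemokine receptor, was the gene higher in dividing cells, at 14.1 and 3.73 CPM in that order.

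The dividing cells that ranked high in Ltf were nearest to the non-dividing ones in these genes. In 4 equal ranges of the 587 dividing cells by Ltf, from low to high, Retnlg stood at 157, 477, 319 and 885 CPM, Mmp8 at 39.7, 137, 174 and 384 CPM and Mmp9 at 29.4, 137, 175 and 261 CPM. Retnlg also stood higher in the dividing cells low in the mitosis list, with 930, 307, 303 and 229 CPM from the lowest to the highest range. The 68 cells with 1 UMI of Mki67 and Top2a held 2289 CPM of Retnlg, against 284 CPM in those with 2 or more.

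The mature neutrophils of the library labelled E18.5 were the far end of the comparison. Over 8757 genes that reached 50 UMIs in either group, 3598 (41.1%) passed 2-fold upwards and 1699 (19.4%) downwards in the dividing precursors, with a median log2 ratio of 0.51. Of those past 2-fold, 67.9% were higher with CPM, 55.4% with median-of-ratios scaling, 74.8% with the total free of granule, S100 and rule genes and 59.5% thinned to 3000 UMIs. Of 23 mature neutrophil genes 0 were higher and 20 lower, with a median of -3.21. Ptgs2 among them reached 50 UMIs in the mature neutrophils alone, so it had to be lower. Il1b, the inflammatory cytokine interleukin 1 beta, was at 11.7 CPM in dividing precursors and 4778 CPM in mature neutrophils, and Csf3r, the receptor of the neutrophil growth factor G-CSF, at 57.6 and 2291 CPM in that order. Of 14 interferon response genes tested 0 were higher and 14 lower (median -5.48), with Ifitm1 at 6.41 CPM in dividing precursors and 1648 CPM in mature neutrophils. Ifit1, Ifit3, Oasl2 and Zbp1 entered that count through the mature neutrophils alone, so they had to be lower. Of 13 early response genes 0 were higher and 10 lower (median -2.43), and the chemokine gene Cxcl2 was at 34.3 and 7280.1 CPM in that order.

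In that comparison 44 of 46 mitosis genes and 36 of 37 DNA replication genes were at least 2-fold higher in the dividing precursors, beside 41.1% of all genes. The median mitochondrial share, 0.908% in the dividing precursors and 11.5% in the mature neutrophils, and the median depth, 22583 and 2941 UMIs, also differed between these groups, and so did stage, animal and library. Their part in the differences was not tested. With the mitochondrial share of every cell held under 10% the median over all genes was 0.18, and 3238 genes were higher and 1843 lower. The secondary granule list was higher in 15 genes and lower in 1 of 18 (median 2.95), with Chil3 at 1921 CPM in dividing precursors and 17.9 CPM in mature neutrophils. Mmp8 was the gene lower, at 160 and 319 CPM in that order.

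The stefin A genes, a cluster that encodes inhibitors of cysteine cathepsins, took 12.6% of all UMIs of the dividing precursors, 125505 CPM. The sum was 162758 CPM in non-dividing cells, 20119 CPM in early granule cells and 1479.8 CPM in the mature neutrophils of the library labelled E18.5. Stfa1 was at 41280 CPM in dividing and 39827 CPM in non-dividing cells, so it stood high in both. Stfa2 was at 6449 CPM in dividing and 13861 CPM in non-dividing cells, and Csta2 at 2209 and 7525 CPM in that order. Against non-dividing cells 0 of 9 tested stefin A genes passed 2-fold upwards and 3 downwards (median -0.48), and against early granule cells 9 were higher and 0 lower (median 3.66), beside 29.7% and 4.21%, and 8.8% and 30%, of all genes. The genes are near-identical copies, and the sources used here do not say how reads were shared between them, so the split between single members is uncertain.

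**Figure D5:**
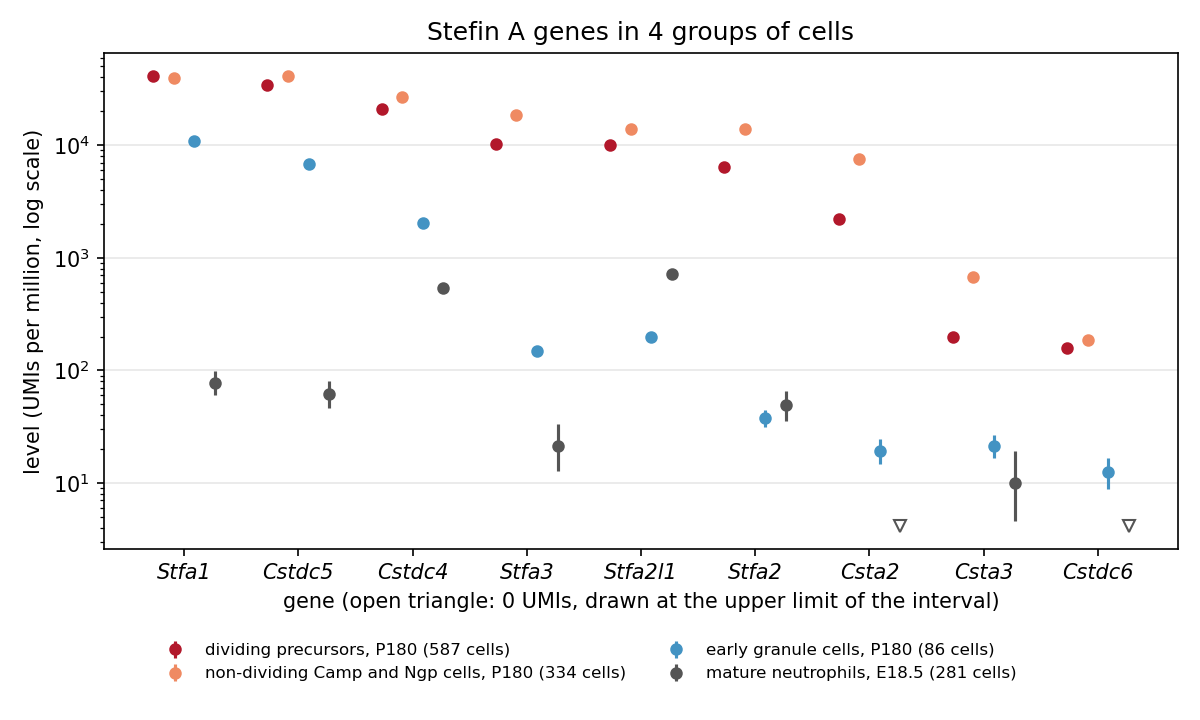
Levels of 9 stefin A genes (CPM, log axis) in the dividing precursors, non-dividing cells and early granule cells of the library labelled P180 and in the mature neutrophils of that labelled E18.5, with exact Poisson 95% intervals; open triangles mark 0 UMIs at the upper limit of the interval. Stfa1 stood at 41280 CPM in the dividing precursors and 77.3 CPM in the mature neutrophils.

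Against the mature neutrophils of the library labelled E18.5 all 9 tested stefin A genes were at least 2-fold higher in the dividing precursors (median 7.03 with 2 genes at their bound), beside 41.1% of all genes. Stfa1 was at 41280 CPM (592752 UMIs) in dividing precursors and 77.3 CPM (69 UMIs) in mature neutrophils, a log2 ratio of 9.06 (8.72 to 9.42). Csta2 had 31718 UMIs in dividing precursors and 0 in mature neutrophils, 657-fold higher with 3 UMIs set for the group at 0. The lower limit of the exact interval of its log2 ratio was 9.06. The 90 cells of the library labelled P180 that met the same limits as the mature neutrophils held Stfa1 at 22775 CPM and Retnlg at 3736 CPM, with Il1b at 232 CPM, and 23 of them were also early granule cells. In the library labelled E18.5, 5 barcodes met every limit set for the dividing precursors; they held 3 UMIs of Stfa1 among 88651 UMIs (33.8 CPM), with Ltf at 3192 CPM. Stage, animal and library cannot be told apart here.

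Among transcription factors, Cebpe was at 681 CPM in dividing, 572 CPM in non-dividing, 307 CPM in early granule cells and 32.5 CPM in the mature neutrophils. Cebpa was at 5.22 CPM in dividing and 60.9 CPM in early granule cells, and Gfi1 at 20.6 CPM in dividing, 2.40 CPM in non-dividing and 95.7 CPM in early granule cells. Cebpb, which takes part in emergency granulopoiesis, was at 228 CPM in dividing, 119 CPM in non-dividing and 3075 CPM in the mature neutrophils. Spi1, the PU.1 factor of myeloid cells, was at 487 CPM in dividing and 579 CPM in non-dividing cells. Of 21 factors tested against non-dividing cells 4 were at least 2-fold higher and 1 lower (median 0.25), beside 29.7% and 4.21% of all genes. Of 22 against early granule cells 2 were higher and 11 lower (median -0.75), beside 8.8% and 30% of all genes. Gata2 entered that count through the early granule cells alone, so it had to be lower.

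S100a8 and S100a9, the subunits of calprotectin, were at 73246 and 101214 CPM in dividing cells and at 82902 and 119524 CPM in non-dividing cells. Of the nuclear envelope genes, which shape the lobed nucleus, 3 of 9 were at least 2-fold higher in dividing than in non-dividing cells, a share near the 29.7% of all genes; Tmpo, 1 of them, was at 255 and 52.2 CPM in that order. The lamin B receptor gene Lbr was at 275 CPM in dividing and 208 CPM in non-dividing cells, and the lamin A gene Lmna at 2.16 CPM in dividing cells.

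Of 12 cytokine and chemokine receptor genes tested against non-dividing cells, 2 were at least 2-fold higher, Kit and Il3ra, and 0 lower (median -0.27), beside 29.7% and 4.21% of all genes. Kit, the stem cell factor receptor, was at 5.36 CPM in dividing, 1.06 CPM in non-dividing and 37.0 CPM in early granule cells. Cxcr4, which holds neutrophil precursors in the marrow, was at 81.8 CPM in dividing, 100.1 CPM in non-dividing and 734 CPM in the mature neutrophils, and 8 of 13 receptor genes were at least 2-fold lower in dividing precursors than in those (median -1.75), beside 19.4% of all genes. Csf1r among them reached 50 UMIs in the mature neutrophils but not in the dividing precursors, so it had to be lower. Of the 16 fetal genes 3 reached 50 UMIs in each comparison, and 2 of them were higher and 0 lower in dividing precursors than in mature neutrophils, where 41.1% of all genes were higher, so this count says nothing particular about them. Igf2bp3, an RNA-binding protein of fetal blood cells, was at 78.1 CPM in dividing, 39.4 CPM in non-dividing, 149 CPM in early granule cells and 1.12 CPM in the mature neutrophils, where it had 1 UMI. The embryonic globin genes Hbb-y, Hbb-bh1 and Hba-x had 0 UMIs in the dividing precursors.

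Markers of other cell types were low in the dividing precursors. The 11 measured erythroid markers summed to 197 CPM in dividing and 122 CPM in non-dividing cells, and all 11 had a UMI in the dividing cells. The 10 monocyte markers summed to 660 CPM in dividing and 777 CPM in non-dividing cells, of which Ly6c2 alone gave 610 and 752 CPM in that order. The 9 macrophage markers summed to 5.71 CPM, and 6 of them, C1qa, C1qb, C1qc, Cd5l, Clec4f and Marco, were at 0 UMIs. Eosinophil and basophil markers summed to 4.39 CPM in dividing and 235 CPM in early granule cells. B cell markers summed to 47.3 CPM and dendritic cell markers to 59.0 CPM, and the 5 cells with most held 67.6% and 79.2% of those UMIs. Their part in the results was not tested.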

How the data were processed

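Droplet-based single-cell libraries (Chromium 3′ v3 chemistry) of 2 livers were deposited as UMI count matrices, per the file headers made with Cell Ranger 7.1.0. The submitters' processing notes also name fastp, Trimmomatic, Seurat, edgeR and the build mm10. The deposited counts per gene and barcode were not normalized. Barcodes with at least 500 UMIs, 200 genes and under 25% mitochondrial UMIs were kept. UMIs were summed over the cells of a group, scaled to CPM and given with exact Poisson 95% intervals; shares have exact binomial intervals. No test was run, because each stage had 1 library and cells are not replicates. Genes with at least 50 UMIs in either group were compared and called past 2-fold. Genes named for a ratio had at least 200 UMIs and ranked in the first 15 (first comparison) or 10 (others) by the nearer bound of the exact interval; the other named genes belong to the lists. A gene at 0 UMIs was set at 3. Scrublet marked 0 barcodes by its own threshold, so the 735 highest scores (0.8% per 1000 barcodes) were left out as an alternative. Members, lists and ranges were chosen with earlier results of these data known. The summing and ratio steps were tested on simulated counts. The tools were scanpy 1.11.5, scipy 1.17.1, numpy 2.4.6, pandas 2.3.3 and matplotlib 3.10.9, run under Python 3.11.15. Promoter sequences came from RefSeq. Ahsp and Gm4758 were not matched to the feature list.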

Additional observations from a re-analysis of the deposited data

Results flagged for a closer look

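In the library labelled E18.5, 5 of 4721 kept barcodes met every limit set for the dividing precursors (0.106%, exact binomial 95% interval 0.0344 to 0.247%), although the comparisons used that library for its mature neutrophils. They held 88651 UMIs, with 5945 CPM of the mitosis list, 3508 CPM of the DNA replication list, 3192 CPM of Ltf and 11122 CPM of Lcn2. Stfa1 had 3 UMIs, Stfa2 0 and Xist 103.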

How the results depend on the processing

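The members numbered 404 to 583 where another limit, thinning or doublet setting changed them, 478 without those that held primary granule genes and 188 among cells of 10000 to 20000 UMIs. Over 792 alternative values of list medians, 400 of the 403 whose value as reported was 2-fold or more kept their sign. The primary granule median over mature neutrophils turned to -0.22 with Camp and Ngp at 5% and to -0.83 without members that held primary granule genes, and the fetal list's to -0.041 at a minimum of 10 UMIs. The members left out were chosen on Mpo, Elane, Prtn3 and Ctsg, which are on the primary granule list. Counts of genes past 2-fold depended on settings. Dividing over non-dividing gave 355 higher and 142 lower thinned to 3000 UMIs, 1625 and 217 with Camp and Ngp at 5%, 1445 and 206 at a minimum of 200 UMIs, 1626 and 234 without members that held primary granule genes, and 709 and 100 in cells of 10000 to 20000 UMIs. It gave 889 lower with median-of-ratios scaling and 704 lower at 10 UMIs. Dividing over early granule cells gave 437 higher and 584 lower thinned, 1411 and 1365 with median of ratios, 1215 and 1616 with the total free of granule, S100 and rule genes, 1303 and 4020 at 10 UMIs, and 1296 lower at 200 UMIs. Dividing over mature neutrophils gave 1100 higher and 750 lower thinned, 2254 and 1087 at 200 UMIs, and 3240 lower at 10 UMIs. The causes were not tested. Median-of-ratios scaling moved the median log2 ratio of all genes to 0.01, 0.00 and 0.07 in the 3 comparisons. The share with a division marker at 3000 UMIs was 59.4% in the range lowest in Ltf and 45.6% in the third. Leaving out members with primary granule genes, cells outside 10000 to 20000 UMIs or early cells with basophil transcripts was chosen after seeing the data. No paired analysis was possible because each stage had 1 library.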
